A study of Mus musculus with 9 samples.

Results

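The 41 genes described here encode proteins of mitosis and its regulators: cyclins and kinases, kinetochore and spindle proteins, motors, cytokinesis proteins and 2 transcription factors. They were taken as the rows of the deposited count table whose symbol is on a list that was drawn up with earlier results of these data known. Each of the 41 symbols matched 1 row of the 55359 listed, and all 41 passed the filter on low counts, as did 14649 genes in all. RNA came from cultured mouse preadipocytes of the inguinal white fat, which lies under the skin, before and during their differentiation into beige adipocytes, a heat-producing kind of fat cell. Cells that had not been induced (day 0) were compared with cells at days 4 and 8 of differentiation, with 3 libraries per day. Cells of both later days were given an induction medium with dexamethasone (2 μg/mL), 3-isobutyl-1-methylxanthine (0.5 mmol/L), indomethacin (125 μmol/L), insulin (5 μg/mL), triiodothyronine (1 μmol/L) and rosiglitazone (0.5 μmol/L). The first 3 of these were left out after the induction period. The labels name no strain, sex or age of the mice. They do not say whether replicates were separate cultures, so the spread behind each p-value is one between libraries and may be technical.

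Mitosis is started by cyclin-dependent kinase 1 bound to its A and B cyclins. The spindle, built of microtubules, motors and their crosslinkers, then attaches to kinetochores on the centromeres, a checkpoint delays separation until all are attached, and the anaphase-promoting complex ends mitosis by destroying cyclin B. Most of these genes are transcribed in G2 under Foxm1, Mybl2 and the MuvB complex, so their RNA is abundant in cycling cells and scarce in quiescent ones. Adipocyte precursors can divide, also shortly after induction, whereas mature adipocytes have left the cell cycle.

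The labelled cell types were checked against marker genes. Values are CPM, counts scaled to the TMM-adjusted library total, which does not correct for gene length. Pdgfra, a receptor of adipocyte precursors, ranged from 175 to 191 CPM at day 0, from 59.5 to 156 CPM at day 4 and from 38.0 to 53.6 CPM at day 8. Other precursor markers took other courses. Of the 7 tested of 8, 4 were lower at day 8 than at day 0 (Pdgfra, Pi16, Thy1 and Col1a1). Cd34, Ly6a and Dlk1 were higher at day 4 than at day 0, with Ly6a at 464 to 1130 CPM against 315 to 407 CPM, and overlapped with day 0 at day 8. The perilipin Plin1 of mature fat cells ranged from 0 to 0.0592 CPM at day 0, from 839 to 1260 CPM at day 4 and from 1180 to 1330 CPM at day 8. The adipocyte marker Ucp1 had 0 CPM in every day 0 library, 3.08 to 12 CPM at day 4 and 88 to 210 CPM at day 8. Of 8 adipocyte markers 7 were tested, and all 7 were higher at day 8 than at day 0. Markers of lymphocytes, which also divide, summed to at most 0.404 CPM in any library over 8 genes, 6 of them at 0 in every day 0 library. The 8 macrophage markers summed to 40.9 to 93.3 CPM at day 0. They summed to 55.6 to 76.5 CPM at day 4 and 8.85 to 49.3 CPM at day 8. The largest of them by mean was Lyz2, at 27 to 68.9 CPM at day 0, 34.4 to 50.9 at day 4 and 2.08 to 30.2 at day 8. The leukocyte antigen Ptprc stood at no more than 0.315 CPM in any library. At day 0, 3 of the 8 markers, Ptprc among them, had a mean under 1 CPM. Mural cells surround vessels and can divide. Of their 7 markers, 2 had a mean under 1 CPM at day 0 and 3 at day 4 and at day 8. The 7 summed to 828 to 910 CPM at day 0, 102 to 298 CPM at day 4, with replicate 2 the highest, and 149 to 163 CPM at day 8. This sum lay below day 0 at both later days, as that of the mitosis genes did, and of the 5 mural markers tested 2 were lower and 1 higher at day 8 than at day 0. The 8 endothelial markers summed to 14.7 to 19.2 CPM at day 0, 29.4 to 32.6 at day 4 and 12.4 to 18.7 at day 8. Of the 6 tested, 4 were lower and 1 higher at day 8 than at day 0. Such a sum does not say which of its markers carry it, or which cells express them. The part of all these cell types in the results was not tested. Total counts per library ranged from 26387408 to 31474490.

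Most of the genes share short sequence elements next to their start sites. RefSeq promoter windows of build GRCm38.p6, from 250 bases before to 50 after a gene start, were at hand for 34 of the 41 genes (36 windows, since Prc1 and Ect2 have 2 overlapping ones each). Both strands were searched for 3 motifs. The cell cycle genes homology region (CHR) was taken as TTTGAA or TTTAAA, and the CCAAT box as CCAAT. The E2F site was taken as TTCCCGC or, with other letters in its middle, as TTCGCGC, as TTGCCGC and as TTGGCGC. A CHR was found in 31 of 36 windows (86.1%) and a CCAAT box in 28 (77.8%), against 27.6% and 37.4% of all 32851 windows of the table. Both stood together in 26 windows (72.2%), against 10.7% of all. E2F matches were found in 7 windows (19.4%, against 9.57% of all). The CHR matches started at a median of -10 bases from the gene start and the CCAAT matches at -67. Nusap1, Nuf2 and Mybl2 had none of these letters in their windows. Such matches are a description of sequence and not of binding, and the shares are not adjusted for base composition.

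The 6 windows below are the first in the order of the gene list that hold both elements. Their joint presence is therefore fixed by the choice. The windows are shown so that the placing of the elements, which differs between them, can be read. Each is written 5′ to 3′ on the strand of the gene, with CHR and CCAAT matches of either strand in capitals (a CCAAT box on the other strand reads ATTGG, and a CHR there reads TTCAAA or TTTAAA). They are the windows of Mki67 (chr7:135716330-135716629, minus strand), Top2a (chr11:99024140-99024439, minus), Ccnb1 (chr13:100786437-100786736, minus), Ccnb2 (chr9:70421505-70421804, minus), Cdk1 (chr10:69352863-69353162, minus) and Bub1b (chr2:118597961-118598260, plus).
Mki67: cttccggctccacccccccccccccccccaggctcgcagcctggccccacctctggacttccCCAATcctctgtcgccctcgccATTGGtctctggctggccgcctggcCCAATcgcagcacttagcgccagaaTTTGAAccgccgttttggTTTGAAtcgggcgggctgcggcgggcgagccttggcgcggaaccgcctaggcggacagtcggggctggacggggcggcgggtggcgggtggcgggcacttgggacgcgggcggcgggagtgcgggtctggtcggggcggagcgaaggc
Top2a: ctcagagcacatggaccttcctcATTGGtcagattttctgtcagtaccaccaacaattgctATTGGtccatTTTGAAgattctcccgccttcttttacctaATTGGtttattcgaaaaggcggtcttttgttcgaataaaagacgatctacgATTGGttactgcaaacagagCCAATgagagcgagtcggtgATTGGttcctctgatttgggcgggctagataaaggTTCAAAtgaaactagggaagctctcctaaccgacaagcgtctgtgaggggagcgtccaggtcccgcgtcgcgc
Ccnb1: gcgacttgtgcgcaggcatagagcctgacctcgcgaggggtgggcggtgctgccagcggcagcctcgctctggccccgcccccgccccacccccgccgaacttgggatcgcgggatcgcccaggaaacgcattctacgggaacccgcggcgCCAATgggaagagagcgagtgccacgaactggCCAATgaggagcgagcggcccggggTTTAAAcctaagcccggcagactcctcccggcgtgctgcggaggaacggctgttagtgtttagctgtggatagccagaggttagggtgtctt
Ccnb2: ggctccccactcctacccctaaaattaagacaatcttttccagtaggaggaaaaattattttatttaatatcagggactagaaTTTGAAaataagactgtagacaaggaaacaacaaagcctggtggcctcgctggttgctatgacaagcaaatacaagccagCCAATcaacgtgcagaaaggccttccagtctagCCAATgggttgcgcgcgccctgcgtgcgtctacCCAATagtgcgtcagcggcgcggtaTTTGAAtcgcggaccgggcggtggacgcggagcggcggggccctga
Cdk1: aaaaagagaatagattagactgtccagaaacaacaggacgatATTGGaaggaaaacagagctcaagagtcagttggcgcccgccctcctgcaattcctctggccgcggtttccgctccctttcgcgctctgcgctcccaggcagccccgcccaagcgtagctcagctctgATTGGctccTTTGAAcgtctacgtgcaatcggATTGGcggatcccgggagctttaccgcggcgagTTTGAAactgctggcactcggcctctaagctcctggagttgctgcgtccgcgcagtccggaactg
Bub1b: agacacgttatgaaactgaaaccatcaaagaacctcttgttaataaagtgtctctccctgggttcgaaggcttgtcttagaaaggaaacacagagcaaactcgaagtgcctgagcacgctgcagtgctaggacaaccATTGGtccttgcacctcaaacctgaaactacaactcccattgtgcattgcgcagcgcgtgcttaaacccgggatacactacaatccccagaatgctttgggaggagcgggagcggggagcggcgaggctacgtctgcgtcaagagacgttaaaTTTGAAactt
In the Ccnb1 window the single CHR, TTTAAA, starts at -42 bases, downstream of 2 CCAAT boxes, and in the Bub1b window the single CHR starts at base 41 of the transcript. Top2a has 6 CCAAT boxes in its window.

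**Figure D1:**
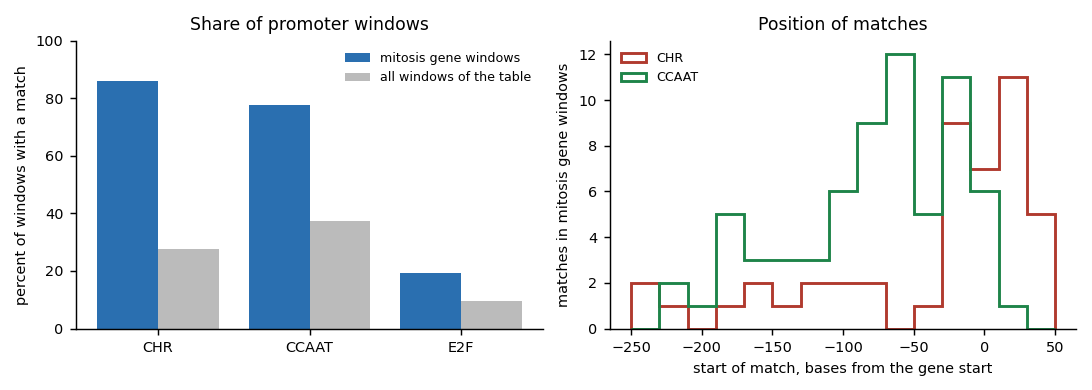
Left, percent of promoter windows with a match to each motif for the mitosis genes (36 windows) and for all 32851 windows of the table. Right, number of CHR and CCAAT matches in the mitosis gene windows in 20-base bins of distance from the gene start; CHR matches lie mostly around the start (median -10) and CCAAT matches before it (median -67).

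The elements were also set beside the change at day 8, in other genes and in the mitosis genes. Among tested genes with a window, leaving out the cell cycle lists described further on, 31.4% of the 968 with both elements were lower at day 8 than at day 0, and 29.8% of the 9745 without both. In the other cell cycle lists the shares were 66.7% of 39 and 38.8% of 98. Among the mitosis genes with a window they were 95.8% of 24 and 90% of 10, so nearly all fell with or without both elements. These are descriptions, with no test.

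From day 0 to day 8 nearly all of the mitosis genes fell. Of 41 genes, 39 were lower at day 8 and none was higher (edgeR, adjusted p under 0.05), where 29.9% of all tested genes were lower and 33.5% higher. The median log2 fold change was -2.12 over the 41 genes and 0.028 over all tested genes. By at least 2-fold 35 of the 41 fell and by at least 4-fold 25, against 19.7% and 9.70% of all tested genes. Every day 8 library lay below every day 0 library in 39 of the 41 genes, all but Kif15 and Cenpa, which held for 35.3% of all tested genes. The summed level of the 41 genes was 420.4, 455.2 and 360.2 CPM in day 0 replicates 1 to 3, 204.4, 304.7 and 228.3 CPM at day 4 and 101.6, 117.7 and 160.7 CPM at day 8. No day overlapped with another in this sum. The sum was 411.9 ± 48.1 CPM (SD, n = 3) at day 0, 245.8 ± 52.4 at day 4 and 126.7 ± 30.5 at day 8. In bulk RNA, fewer dividing cells and less RNA of these genes per cell cannot be told apart.

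**Figure D2:**
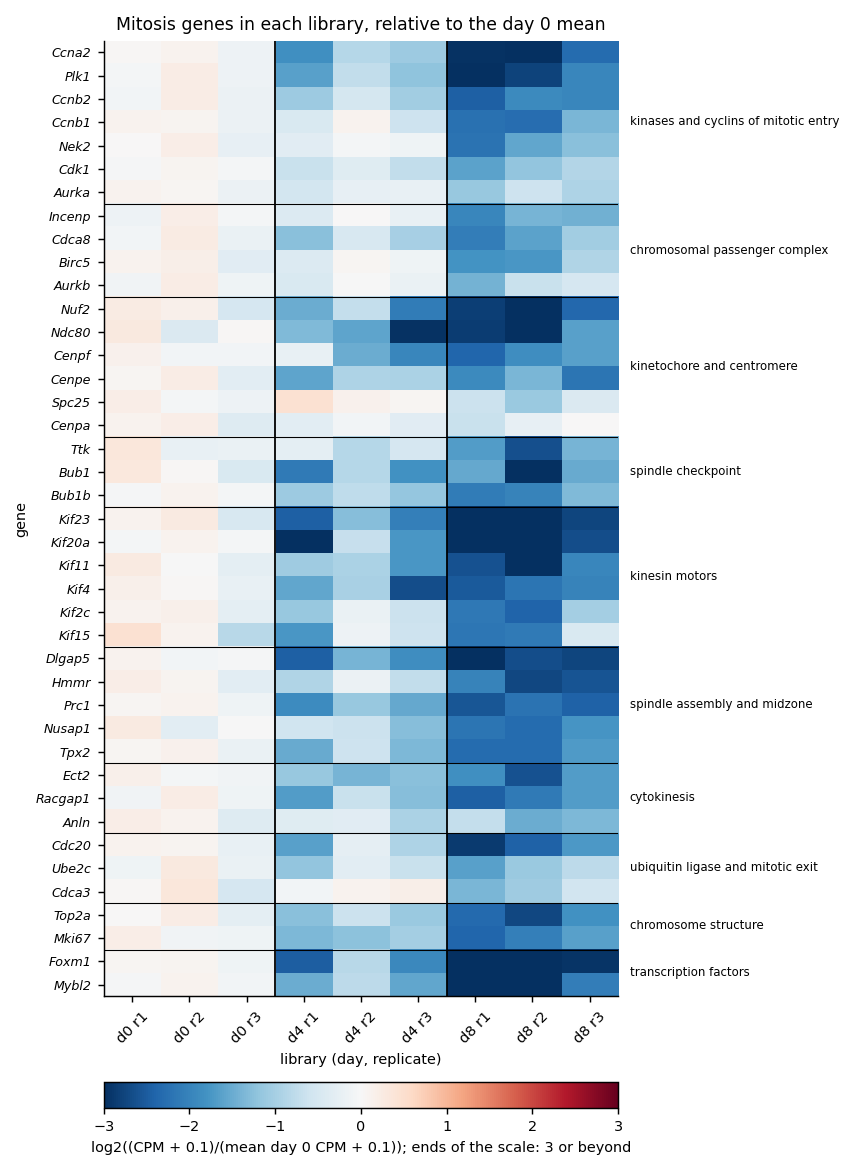
Each row is 1 of the 41 genes, grouped by role, and each column 1 library; colour is log2 of (CPM + 0.1) over (mean day 0 CPM + 0.1). Day 8 columns are the darkest blue in most rows; Cenpa is the palest row, and at day 4 replicate 2 is paler than replicates 1 and 3 in most rows.

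Libraries of 1 day differed in the same direction over many of the genes. At day 4, replicate 2 had the highest level of the 3 libraries in 32 of 41 genes, with a median of 1.27 times the mean of the day. This library also had the lowest sum of 8 adipocyte markers at day 4 (19700 CPM, against 36600 and 32500 CPM in replicates 1 and 3) and the highest sum of 8 precursor markers (8710 CPM, against 4050 and 5160 CPM), most of which was Col1a1. Its mural markers were the highest too (298 CPM, against 102 and 141 CPM). At day 8, replicate 3 was highest in 33 of 41 genes, at a median of 1.31 times the mean of the day. Its precursor markers summed to 5000 CPM against 3630 and 3270 CPM, while its adipocyte markers (27000 CPM) were near those of replicate 1 (27100 CPM). At day 0, replicate 3 was lowest in 36 of 41 genes (median 0.877 times the mean of the day). Without day 4 replicate 2, 39 genes were lower at day 8 than at day 0 and the median was -2.17, and without day 8 replicate 3, 40 genes were lower and the median was -2.37.

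Day 4 lay between. At day 4, 25 of the 41 genes were lower than at day 0 and none was higher (edgeR), where 26.0% of all tested genes were lower and 28.6% higher. By at least 2-fold 19 of the 41 fell, against 16.0% of all. Every day 4 library lay below every day 0 library in 29 genes, against 33.0% of all tested genes. The median log2 fold change was -0.99, against -0.012 over all tested genes. Of the 25 genes, 13 stayed lower under every alternative tried (Mki67, Top2a, Ccnb2, Ccna2, Bub1b, Tpx2, Kif23, Kif4, Prc1, Ect2, Dlgap5, Racgap1 and Foxm1). The other 12 calls did not hold under all of them. Leaving out day 4 replicate 3 brought the count to 13, and leaving out day 4 replicate 2 to 26.

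Between day 4 and day 8, 22 of 41 genes fell and none rose (edgeR), where 10.8% of all tested genes were lower and 11.7% higher. By at least 2-fold 16 fell, against 5.24% of all, and every day 8 library lay below every day 4 library in 29 genes, against 17.1% of all. The median was -1.09, against 0.003 over all tested genes. Under every alternative 9 remained (Top2a, Ccnb1, Ccnb2, Ccna2, Birc5, Nek2, Hmmr, Incenp and Spc25). Leaving out day 8 replicate 1 gave 11 genes, and leaving out day 8 replicate 2 gave 10. A fit of only the days 4 and 8 libraries gave 13. The comparisons of day 4 with day 0 and of day 8 with day 4 share the day 4 libraries. Whether the change of a gene differed between the intervals was therefore tested directly, as the second change minus the first. For 3 of 41 genes the second change was more negative (Ccnb1, Incenp and Spc25) and for none the first, where 19.0% of all tested genes had the more negative second change and 12.7% the more negative first one. None of the 3 calls held under every alternative, and with scaling by total counts none of the 41 passed.

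**Figure D3:**
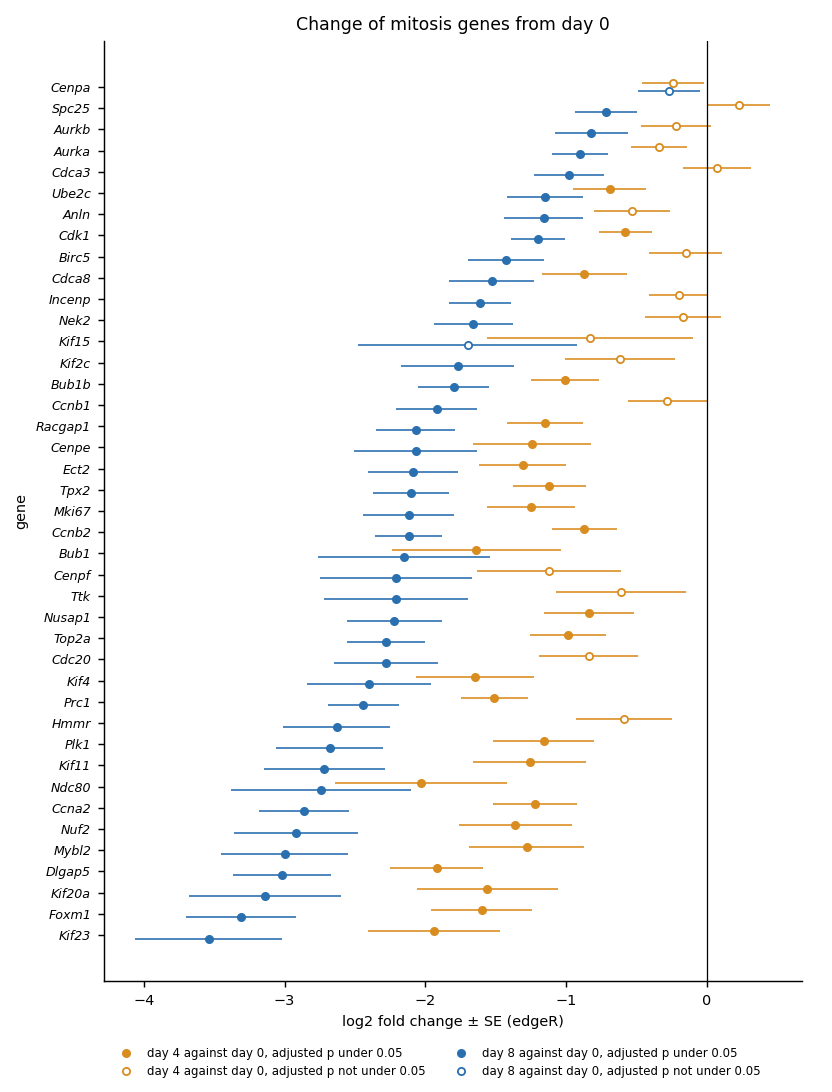
Log2 fold change from day 0 with its standard error for each of the 41 genes, at day 4 (orange) and day 8 (blue); filled points passed an adjusted p of 0.05. All day 8 points except those of Cenpa and Kif15 are filled, and Kif23 and Foxm1 lie farthest to the left at day 8.

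The mitotic kinases and cyclins all fell by day 8, at unequal sizes. Cdk1, the kinase that starts mitosis, stood at 31.5, 34.1 and 31.1 CPM at day 0, 20.3, 25.1 and 19.2 CPM at day 4 and 10.5, 14.2 and 17.4 CPM at day 8. No day overlapped with another, and the fall by day 8 was the second smallest of the 7 kinases and cyclins (log2 fold change -1.20, SE 0.19, edgeR adjusted p = 0.000289). Its partner Ccna2, cyclin A2, went from 17.9, 18.7 and 15.8 CPM to 4.80, 9.61 and 8.11 CPM at day 4 and 2.15, 1.62 and 3.43 CPM at day 8. The days did not overlap, and the fall was -2.86 by day 8 (SE 0.32, adjusted p = 3.03e-05). The B cyclins took different courses. Ccnb1 had 15.2, 15.0 and 12.5 CPM at day 0 and 10.4, 15.4 and 9.25 CPM at day 4, which overlapped (-0.28, SE 0.28, adjusted p = 0.413). It was down to 2.95, 2.82 and 5.43 CPM at day 8, below every day 4 library (day 8 against day 4, -1.64, SE 0.29, adjusted p = 0.00398). The second change was the more negative (difference -1.36, SE 0.47, adjusted p = 0.049). This call was lost in 10 alternatives, and without day 4 replicate 2 the difference was -0.91 (adjusted p = 0.145). Ccnb2 fell in the first interval too, from 13.5, 16.5 and 12.5 CPM to 6.63, 9.83 and 6.81 CPM and then to 2.50, 3.73 and 3.58 CPM (-0.87, SE 0.23, adjusted p = 0.00855, and -1.25, SE 0.24, adjusted p = 0.00569). The days of Ccnb2 were fully apart.

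Among the other kinases, Plk1, which acts on centrosomes and kinetochores, had 13.5, 16.4 and 12.6 CPM at day 0 and 1.11, 1.96 and 3.54 CPM at day 8 (-2.68, SE 0.38, adjusted p = 0.000151). All its day 4 libraries lay in between, at 4.46, 8.38 and 6.06 CPM. Nek2, a centrosome kinase, had 5.96, 6.86 and 5.00 CPM at day 0 and 4.71, 5.66 and 5.43 CPM at day 4, with overlap, and 1.21, 1.96 and 2.45 CPM at day 8 (day 8 against day 4, -1.49, SE 0.28, adjusted p = 0.00551). Aurka, the Aurora kinase of the spindle poles, moved least of these kinases, from 11.9, 11.5 and 9.76 CPM to 4.96, 7.16 and 5.75 CPM at day 8 (-0.90, SE 0.20, adjusted p = 0.0024).

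**Figure D4:**
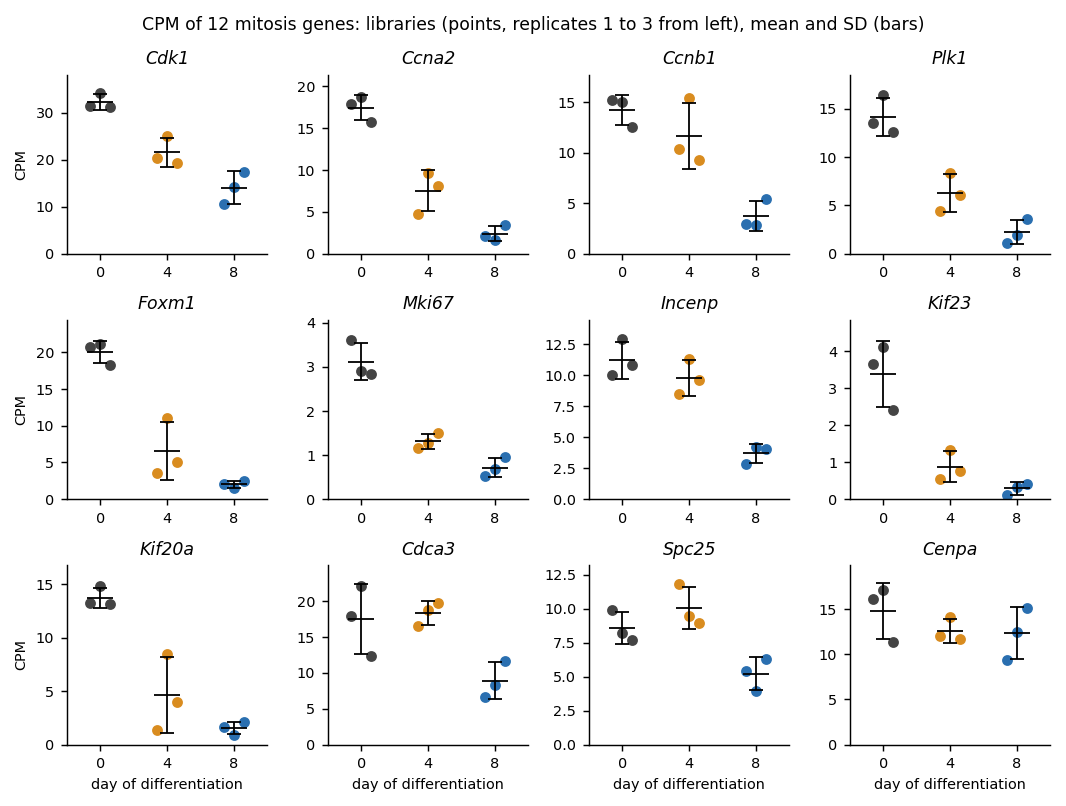
CPM of 12 of the genes by day, with each library as a point (replicates 1 to 3 from left to right) and the mean and SD as bars; every axis starts at 0. Ccna2, Plk1, Foxm1 and Kif23 step down at both days, Ccnb1, Incenp, Cdca3 and Spc25 are low at day 8 and overlap between days 0 and 4, and Cenpa overlaps at all days.

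The chromosomal passenger complex, which corrects faulty attachments and guides cytokinesis, is represented by 4 genes. At day 4 only Cdca8 was called lower, and at day 8 all 4 were. Incenp, its scaffold, had 10.0, 12.9 and 10.8 CPM at day 0, 8.47, 11.3 and 9.61 CPM at day 4 and 2.81, 4.18 and 4.07 CPM at day 8. Days 0 and 4 overlapped (-0.20, SE 0.21, adjusted p = 0.451) and day 8 lay apart from both (day 8 against day 4, -1.41, SE 0.22, adjusted p = 0.00229). The second change was the more negative (difference -1.21, SE 0.36, adjusted p = 0.0255). This call was lost in 4 alternatives, with an adjusted p of 0.0603 without day 0 replicate 1 and of 0.0804 with total counts. Birc5, survivin, followed a similar course, with 13.9, 14.8 and 10.2 CPM at day 0, 9.76, 13.6 and 11.8 CPM at day 4 and 3.68, 3.80 and 6.90 CPM at day 8; the difference between the intervals did not pass (-1.14, SE 0.45, adjusted p = 0.0783). Aurkb, the kinase of the complex, had 7.52, 9.36 and 7.34 CPM at day 0, 5.84, 7.95 and 7.01 CPM at day 4 and 2.98, 5.01 and 5.68 CPM at day 8. Only day 8 lay apart from the other days, and the fall from day 0 was -0.82 (SE 0.26, adjusted p = 0.0164; 0.0579 without day 0 replicate 2). Cdca8, borealin, was the member already lower at day 4 (-0.87, SE 0.30, adjusted p = 0.0276), a call that did not pass without day 0 replicate 2 or day 4 replicate 1 or 3.

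Kinetochore genes ranged from one of the larger falls to no detectable change. Nuf2 and Ndc80 encode partners in the complex that grips microtubules. Nuf2 had 5.36, 5.05 and 3.17 CPM at day 0 and 0.555, 0.414 and 0.806 CPM at day 8, with no overlap (-2.92, SE 0.44, adjusted p = 0.000215). Ndc80 fell from 1.99, 1.17 and 1.66 CPM to 0.139, 0.113 and 0.456 CPM (-2.74, SE 0.64, adjusted p = 0.00324; -3.62 without day 8 replicate 3). Ndc80 rests on 20 counts over the day 8 libraries, so its level there is imprecise. Spc25, another subunit of the same complex, had 9.87, 8.19 and 7.66 CPM at day 0, 11.8, 9.43 and 8.94 CPM at day 4 and 5.41, 3.92 and 6.31 CPM at day 8. Its day 4 level was not distinguishable from day 0 (0.23, SE 0.22, adjusted p = 0.402; -0.10 with total counts). It was lower at day 8 than at day 4 (-0.94, SE 0.22, adjusted p = 0.0147), and lower than at day 0 by -0.72 (SE 0.22, adjusted p = 0.0157), a call lost without day 0 replicate 1 (0.061) or day 8 replicate 2 (0.0535). The difference between its intervals was -1.17 (SE 0.37, adjusted p = 0.0353; lost in 6 alternatives, with 0.138 without day 4 replicate 1).

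Cenpa, the histone variant that marks centromeres, was 1 of the 2 genes not called at day 8. It had 16.1, 17.1 and 11.3 CPM at day 0, 12.0, 14.1 and 11.7 CPM at day 4 and 9.40, 12.5 and 15.1 CPM at day 8. All 3 days overlapped (day 8 against day 0, -0.27, SE 0.22, adjusted p = 0.298), and with scaling by total counts it was lower by -0.63 and passed. Its count of 1034 at day 8 was second among the 41 only to that of Cdk1, at 1177. The large kinetochore proteins Cenpe, a motor, and Cenpf had 1.32 ± 0.263 and 1.51 ± 0.144 CPM at day 0 (SD, n = 3) and 0.313 ± 0.125 and 0.323 ± 0.107 CPM at day 8. Both were lower at day 8, by -2.07 and -2.21 (SE 0.44 and 0.54). Their day 8 levels rest on 26 and 27 counts over the 3 libraries and are imprecise.

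The 3 spindle checkpoint genes fell by similar amounts to day 8. Bub1b, which encodes the inhibitor BubR1, fell from 9.62, 10.7 and 9.50 CPM at day 0 through 4.59, 5.81 and 4.37 CPM at day 4 to 2.26, 2.41 and 3.89 CPM at day 8. Its days were fully apart (day 8 against day 0, -1.80, SE 0.25, adjusted p = 0.000125). The kinases Bub1 and Ttk were scarce, at 1.79 ± 0.498 and 0.998 ± 0.256 CPM at day 0, and were lower at day 8 by -2.15 and -2.21 (SE 0.61 and 0.51, adjusted p = 0.0102 and 0.00319). These levels rest on 34 and 18 counts over the day 8 libraries.

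Kinesin motors of the spindle and midzone held some of the largest falls. Kif23, which bundles midzone microtubules for cytokinesis, had the most negative value of the 41 genes at day 8, from 3.67, 4.11 and 2.40 CPM at day 0 to 0.542, 1.34 and 0.748 CPM at day 4 and 0.104, 0.339 and 0.421 CPM at day 8. The days did not overlap (day 4 against day 0, -1.94, SE 0.47, edgeR adjusted p = 0.00512, and day 8 against day 0, -3.54, SE 0.52, adjusted p = 0.000182). Kif23 rests on 24 counts over the day 8 libraries, so its level there and the size of its fall are imprecise. Kif20a, its relative in the midzone, spread widely at day 4, with 1.38, 8.49 and 4.02 CPM in replicates 1 to 3 against 13.2, 14.8 and 13.1 CPM at day 0 and 1.63, 0.904 and 2.10 CPM at day 8. Day 4 replicate 1 lay inside the range of day 8 and replicate 2 was nearest to day 0. The fall to day 4 was -1.56 (SE 0.50, adjusted p = 0.022), or -2.34 without day 4 replicate 2, and that to day 8 was -3.14 (SE 0.54, adjusted p = 0.000519). Kif11, the motor that pushes spindle poles apart, had 4.42, 3.63 and 2.99 CPM at day 0 and 0.520, 0.264 and 0.876 CPM at day 8, with no overlap (-2.72, SE 0.43, adjusted p = 0.000301). Kif4, a chromosome-bound motor, had 3.67, 3.37 and 2.81 CPM at day 0, 1.04, 1.63 and 0.433 CPM at day 4 and 0.486, 0.640 and 0.736 CPM at day 8. Its later days overlapped with each other and not with day 0 (day 4 against day 0, -1.65, SE 0.42, adjusted p = 0.00729). Kif2c, which takes microtubules apart at centromeres, was lower by -1.77 (SE 0.40, adjusted p = 0.00283; -2.36 without day 8 replicate 3). Kif15, a spindle motor, had 0.943, 0.712 and 0.325 CPM at day 0 and 0.0694, 0.0753 and 0.456 CPM at day 8. With 17 counts over the day 8 libraries and overlap of the days, its change was not distinguishable from 0 (-1.70, SE 0.78, adjusted p = 0.0777), and it passed without day 8 replicate 3 (-3.12) and with total counts (-2.04).

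All 5 genes of spindle assembly and the midzone were lower at day 8, by -2.10 to -3.02. Tpx2, which activates Aurora A on the spindle, was the most abundant by CPM, at 22.8, 24.2 and 19.0 CPM at day 0, 7.59, 14.2 and 8.58 CPM at day 4 and 4.37, 4.33 and 6.73 CPM at day 8. Its days were apart (-1.12, SE 0.26, adjusted p = 0.00443 at day 4). Prc1, the microtubule crosslinker that Kif4 binds, fell from 11.5, 11.9 and 10.1 CPM to 2.92, 5.01 and 3.78 CPM at day 4, the smallest adjusted p of the 41 genes at that day (-1.51, SE 0.24, adjusted p = 0.000356), and to 1.80, 2.33 and 2.00 CPM at day 8. Dlgap5, a spindle protein that stabilises kinetochore fibres, fell as early, from 4.42, 3.85 and 3.99 CPM to 0.668, 1.49 and 1.06 CPM (-1.92, SE 0.33, adjusted p = 0.000672). Nusap1, which bundles microtubules near chromosomes, had 3.91, 2.56 and 3.20 CPM at day 0, 2.09, 2.03 and 1.26 CPM at day 4 and 0.625, 0.565 and 0.876 CPM at day 8. Its days did not overlap (day 8 against day 0, -2.22, SE 0.34, adjusted p = 0.000253). Hmmr, a spindle-pole protein, was not called at day 4 (1.46, 2.50 and 1.65 CPM against 3.23, 2.98 and 2.25 CPM, -0.59, SE 0.34, adjusted p = 0.162). It then had the most negative value of the 41 genes from day 4 to day 8, ending at 0.625, 0.339 and 0.386 CPM (-2.05, SE 0.38, adjusted p = 0.00495).

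In cytokinesis, Racgap1, which with Kif23 forms the centralspindlin complex, fell from 25.4, 31.9 and 25.1 CPM at day 0 through 8.51, 17.3 and 11.3 CPM to 4.96, 6.21 and 8.48 CPM at day 8. The highest day 8 library lay just below the lowest day 4 library, and day 0 was well apart from both (day 8 against day 0, -2.07, SE 0.28, adjusted p = 0.000102). Ect2, the activator of the GTPase RhoA at the cleavage furrow, had 4.42, 3.82 and 3.73 CPM at day 0 and 1.75, 1.45 and 1.61 CPM at day 4 (-1.31, SE 0.31, adjusted p = 0.00425). Anln, the furrow scaffold anillin, had the smallest fall of the 3, with 9.23 ± 1.90 CPM at day 0 and 4.12 ± 1.28 CPM at day 8 (-1.16, SE 0.28, adjusted p = 0.00393).

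The anaphase-promoting complex and its substrates were represented by 3 genes. Its activator Cdc20 had 20.3, 20.2 and 16.4 CPM at day 0 and 2.53, 3.46 and 5.68 CPM at day 8 (-2.28, SE 0.37, adjusted p = 0.000314), with 6.05, 15.7 and 9.96 CPM at day 4. Ube2c, the ubiquitin-conjugating enzyme of the complex, had 19.2, 25.5 and 18.1 CPM at day 0 and 6.70, 9.68 and 12.0 CPM at day 8 (-1.15, SE 0.27, adjusted p = 0.00323). Cdca3, a trigger of mitotic entry, had 17.9, 22.1 and 12.4 CPM at day 0, 16.5, 18.8 and 19.8 CPM at day 4 and 6.66, 8.32 and 11.7 CPM at day 8. Day 4 overlapped with day 0 (0.07, SE 0.24, adjusted p = 0.82; its sign turned with total counts, at -0.25, and without day 0 replicate 3, at -0.13). It was lower at day 8 than at day 4 (-1.05, SE 0.25, adjusted p = 0.0153), a call that did not pass without day 4 replicate 3 or day 8 replicate 1 or 2.

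Both genes of chromosome proteins fell. Top2a, topoisomerase II alpha, which untangles sister chromatids, went from 14.6, 16.8 and 11.8 CPM through 5.97, 9.22 and 6.58 CPM to 2.78, 2.07 and 4.03 CPM. Its days were apart at each step (-0.99, SE 0.27, adjusted p = 0.00972 at day 4; -1.29, SE 0.28, adjusted p = 0.00992 from day 4 to day 8). Mki67, the proliferation antigen Ki-67 that coats mitotic chromosomes, had 3.61, 2.91 and 2.84 CPM at day 0, 1.17, 1.27 and 1.50 CPM at day 4 and 0.520, 0.678 and 0.946 CPM at day 8 (day 8 against day 0, -2.12, SE 0.32, adjusted p = 0.000226).

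Both transcription factors of the group lay among the largest falls. Foxm1, which drives transcription in G2, stood at 20.8, 21.1 and 18.3 CPM at day 0, 3.55, 11.1 and 5.12 CPM at day 4 and 2.01, 1.51 and 2.52 CPM at day 8. The days did not overlap, although day 4 replicate 2 lay above the other day 4 libraries (day 4 against day 0, -1.60, SE 0.36, adjusted p = 0.00337, or -2.21 without that library). By day 8 the fall was -3.31 (SE 0.39, adjusted p = 4.26e-05). Mybl2, B-Myb, which works with the MuvB complex, went from 4.66, 5.15 and 4.50 CPM to 0.451, 0.264 and 1.05 CPM at day 8 (-3.00, SE 0.45, adjusted p = 0.000214; -3.71 without day 8 replicate 3).

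Levels of different genes can be compared only per length, here as CPM per kilobase of exons (GENCODE M21 exon lengths). On that scale Cdc20 was the most abundant of the 41 at day 0 (10.2), followed by Ccnb2 (9.25), Ube2c (8.06), Cdk1 (6.54), Plk1 (6.43) and Cdca3 (6.10). Kif15 was the lowest at 0.0599. At day 8 the order was Ube2c (3.63), Cdca3 (3.10) and Cdk1 (2.85), followed by Aurka (2.35), Ccnb2 (2.13), Cenpa (2.11) and Cdc20 (2.08). Cenpa had stood at place 18 at day 0. Neighbours in these orders were not tested against each other. Over the 41 genes, the Spearman correlation of exon length with the change from day 0 was -0.44 at day 4 and -0.28 at day 8, so longer genes tended to have the more negative change. Over 14622 tested genes with a length it was -0.22 at day 8. No such value over all tested genes was computed for day 4, so the -0.44 stands without a background. These genes share their libraries, and the correlation is a description.

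Other genes of cell division were taken from 8 lists, chosen with earlier results of these data known. Their counts stand against 29.9% lower and 33.5% higher among all tested genes at day 8 against day 0, and a median of 0.028. Among other kinetochore and centromere genes, 18 of 33 were lower at day 8 than at day 0 and 2 higher (Pmf1 and Cenpw), with a median of -0.93. Ska1, of the complex that couples kinetochores to microtubule ends, was lower by -2.86 (SE 0.46, adjusted p = 0.000336), and Knl1, the scaffold on which checkpoint proteins dock, by -2.81 (SE 0.55, adjusted p = 0.00112). These 2 rest on 27 and 9 counts over the day 8 libraries, so the sizes of their falls are imprecise. Among other spindle, motor and cytokinesis genes, 13 of 26 tested were lower and 3 higher (Haus1, Haus5 and the gamma-tubulin Tubg1), with a median of -0.39. The largest falls there were those of Cit, citron kinase of the cleavage furrow (-4.45, SE 0.63, edgeR adjusted p = 0.000139), and Kif18b, a plus-end motor (-4.10, SE 0.43, adjusted p = 1.98e-05). Cit and Kif18b rest on 19 and 23 counts over the day 8 libraries, so these sizes are imprecise too. Mitotic entry kinases and phosphatases were lower in 8 of 13 cases and higher in 3 (Cdc25a, Pkmyt1 and Arpp19), with a median of -0.60. In condensin and cohesin, 5 of 19 genes were lower (Smc2, Ncapd2, Ncapg, Ncaph and Cdca5) and 4 higher (Ncaph2, Stag2, Pds5a and Wapl). The median was 0.02, and this is no more than among all tested genes. The largest fall there was that of the condensin subunit Ncapg (-2.81, SE 0.86, adjusted p = 0.0144). Ncapg had 13, 0 and 1 counts in day 8 replicates 1 to 3, so the size of its fall is imprecise.

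The anaphase-promoting complex and mitotic exit list had 6 of 21 genes lower and 6 higher, with a median of -0.09, also no more than the 29.9% and 33.5% of all tested genes. Its largest fall was that of Fbxo5, the inhibitor Emi1 of the complex (-2.79, SE 0.50, adjusted p = 0.000656; -3.51 without day 8 replicate 3). Pttg1, securin, which restrains the separation of sister chromatids until anaphase, rose. It had 13.1, 15.9 and 13.1 CPM at day 0, 36.8, 20.9 and 30.4 CPM at day 4 and 98.7, 135 and 91.1 CPM at day 8 (day 8 against day 0, 2.95, SE 0.23, adjusted p = 3.24e-06). The days of Pttg1 did not overlap, and its direction was opposite to that of the 39 mitosis genes that fell.

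Of the DREAM, MuvB and E2F genes, which regulate the cell cycle genes, 7 of 19 were lower and 6 higher at day 8 (median -0.10), near the 29.9% and 33.5% of all tested genes. The E2F repressors E2f8 and E2f7 were lower, by -2.74 (SE 0.64, adjusted p = 0.00351) and -2.58 (SE 0.53, adjusted p = 0.00146). Rb1, the retinoblastoma protein that restrains E2F, rose from 8.30, 7.58 and 7.01 CPM at day 0 to 47.3, 19.2 and 37.4 CPM at day 4 and 83.3, 56.0 and 64.2 CPM at day 8 (3.15, SE 0.30, adjusted p = 1.07e-05). E2f2 was also called higher at day 8, at 2.78, 3.35 and 3.79 CPM against 0.782, 0.389 and 0.74 CPM at day 0. Its day 4 libraries had 8.76, 13.1 and 15.9 CPM. Of the G1 cyclins, kinases and CDK inhibitors, 7 of 15 were lower and 5 higher (Ccnd3, Ccne1, Cdkn1a, Cdkn2c and Cdkn2d), with a median of -0.18. The inhibitors Cdkn1b, Cdkn2a and Cdkn2b were among the lower ones. Cdkn1a passed narrowly (0.41, edgeR adjusted p = 0.0485), and with scaling by total counts it stood at 0.04 (adjusted p = 0.818). Cdkn2c, the CDK4 and CDK6 inhibitor p18, rose from 20.4, 25.2 and 20.9 CPM to 129, 128 and 134 CPM at day 8 (2.56, SE 0.21, adjusted p = 4.33e-06). The cyclin gene Ccnd1 was at 40.1, 29.3 and 43.3 CPM at day 0 and 5.86, 4.59 and 8.48 CPM at day 8 (-2.57, SE 0.68, adjusted p = 0.00681), and spread from 8.18 to 78.2 CPM at day 4, with the highest value in replicate 2. Replication licensing genes were lower in 13 of 23 cases and higher in 5 (Gmnn, Orc2, Orc3, Orc4 and Orc5), with a median of -0.73. Mcm5 of the replicative helicase was at -2.80 (SE 0.28, edgeR adjusted p = 1.51e-05). Gmnn, geminin, which blocks relicensing, rose from 4.26, 4.50 and 3.22 CPM to 20.3, 23.7 and 17.2 CPM (2.35, SE 0.28, adjusted p = 4.21e-05). Whether these lists differ from the 41 genes was not tested.

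**Figure D5:**
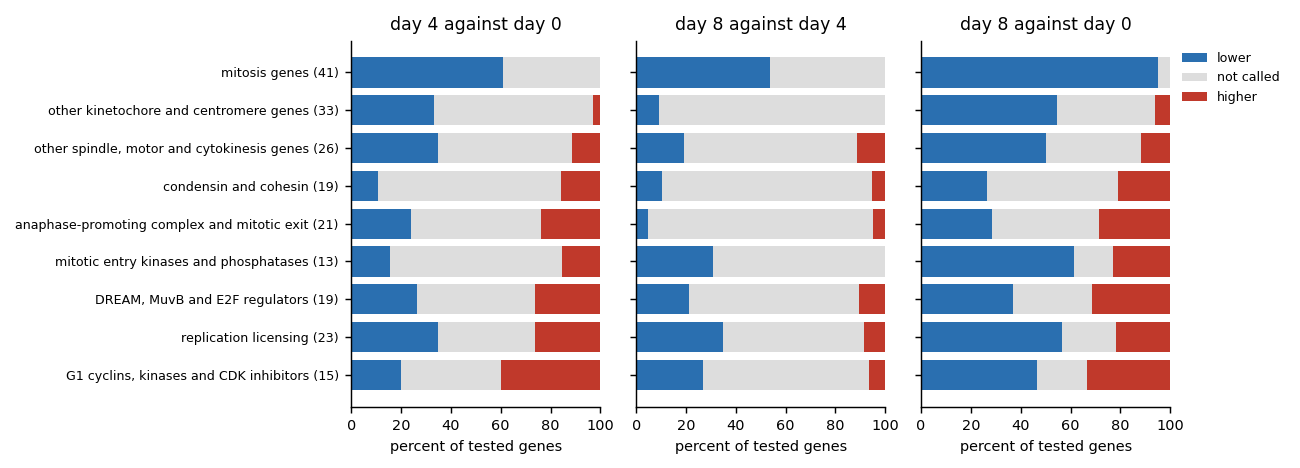
Percent of the tested genes of each list (number in brackets) that were lower, not called or higher in each of the 3 comparisons, by edgeR at an adjusted p of 0.05. The mitosis genes have the longest blue bars at every comparison and no red, and each other list has genes that were higher in at least 1 of the comparisons.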

How the data were processed

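Raw read counts per gene, not normalized, were deposited by the authors for each of the 9 libraries. The submitters' processing notes name HISAT2, featureCounts and GRCm39. Versions, strand setting and annotation release are not given in the sources used here, and genes that overlap or lie antisense to each other are therefore uncertain. Libraries came from the supernatant of a cleared detergent lysate and a stranded total RNA kit, per the labels' protocols.

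A quasi-likelihood model of edgeR 4.0.16 (R 4.3.3) was fitted to the 9 libraries together with TMM scaling, no covariates and 6 residual degrees of freedom (biological coefficient of variation 22.7%), after filterByExpr (minimum count 10, minimum total 15). Two-sided F-tests were adjusted by Benjamini-Hochberg over all 14649 genes, with a threshold of 0.05. The standard error is the log2 fold change over the root of F. Alternatives used DESeq2 1.42.0, other scalings, no filter, fewer libraries and a replicate block. A floor of 3 counts in a library is 0.0809 to 0.125 CPM, for counting error only. Libraries of the same day differed by more than sampling noise (chi-square over its degrees of freedom between 16.7 and 250). The members, lists and rules were chosen with earlier results of these data known. Promoter windows and exon lengths come from RefSeq GRCm38.p6 and GENCODE M21, another build than that of the counts, and were joined by gene name or identifier only.

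Any of the 41 genes could be named. Of each other list, up to 3 genes were named with the largest change among those called at day 8 against day 0. Preset genes were also named (Pdgfra, Plin1, Ucp1, Ptprc, Ccnd1, Cdkn1a and Cdkn1b are the ones printed). So were the genes in printed day 8 against day 0 counts of 5 or fewer of the other cell cycle lists, and the precursor markers tested. Cdkn2a, Cdkn2b and E2f2 were named outside these rules. The macrophage marker Lyz2 was named as the largest of its list by mean.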

Additional observations from a re-analysis of the deposited data

How the results depend on the processing

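The count of 39 genes lower at day 8 than at day 0 ranged from 38 to 41 over all alternatives, and 37 of the 39 were called in each. Scaling by total counts, under which the median log2 fold change of all genes was -0.336 at day 4, gave medians of -1.30 at day 4 and -2.48 at day 8 for the mitosis genes. Leaving out 1 library gave 13 to 26 mitosis genes at day 4 against day 0 and 10 to 26 at day 8 against day 4. For the difference between the intervals it gave 0 to 6. A fit of only the days compared gave 13 mitosis genes and 1901 genes in all at day 8 against day 4. The difference between the intervals was called for 0 mitosis genes with total counts and for 5 with DESeq2. Over all genes, leaving out 1 library gave 1894 (without day 4 replicate 3) to 4185 (without day 4 replicate 1) genes at day 8 against day 4 and 2863 (without day 4 replicate 3) to 6293 (without day 4 replicate 2) for the difference between the intervals. Signs near 0 turned for Spc25 at day 4 with total counts (-0.10) and for Cdca3 (-0.25 with total counts; -0.13 without day 0 replicate 3, to 0.28 without day 0 replicate 2). From day 4 to day 8 they turned for Bub1 (0.02) and Cenpa (0.01) without day 4 replicate 2 and for Cenpa without day 8 replicate 1 (0.13), with lowest values of -0.84 for Bub1 and -0.20 for Cenpa without day 8 replicate 3. The cause was not tested. Replicate numbers share no stated animal or batch, and deviations of same-numbered libraries correlated by -0.13 to 0.27. With the replicate number as a block, 24 mitosis genes were lower at day 4 than at day 0, 39 at day 8 than at day 0 and 19 at day 8 than at day 4. The block left 2 genes for the difference between the intervals. Depth limits Kif15, Ttk, Ndc80, Kif23, Cenpe and Cenpf, with 17 to 27 counts over the 3 day 8 libraries. In the other lists it limits Knl1, Ncapg, Cit, Kif18b and Ska1, with 9 to 27 counts.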
